A study of Homo sapiens with 4 samples.

Results

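The 30 genes described here encode most of the enzymes that build cholesterol and fatty acids from acetyl-CoA, with the transcription factors and carriers that govern sterol supply. They were taken as a named list of gene symbols, which was chosen with earlier results of these data known. All 30 were found among the 26475 genes of each count table. The list holds 7 genes of the mevalonate pathway, 11 genes from squalene to cholesterol, 4 regulators or carriers, 5 genes of acetyl-CoA supply and fatty acid synthesis, and 3 desaturases.

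RNA-seq was done on mammospheres, spheres that grow from cells kept in suspension in serum-free medium with B27 and EGF, of the established line MDA-MB-468, a basal-like triple-negative breast cancer (TNBC). By the study's methods, cells were infected with lentiviruses that carry Cas9 with mCherry and a doxycycline-inducible guide with green fluorescent protein, and double-positive cells were sorted, so each line is a sorted pool and not a clone. CTL denotes cells with the control guide, labelled wild type and without treatment, and CTL+dox the same cells, labelled wild type, given doxycycline. The cells labelled gRNA2 carry the inducible guide against TCOF1, a nucleolar protein of ribosome biogenesis, and without treatment are labelled wild type, whereas gRNA2+dox cells were given doxycycline and are labelled as a knockout of TCOF1. Each condition was 1 library made from several pooled plates, so no condition had a replicate. The intervals below are exact Clopper-Pearson intervals at the 95% level, made from the counts of both libraries compared. Counting error is all that they cover, and they describe libraries and not conditions, so no p-value is given. In bulk RNA, fewer cells of a type and less RNA per cell cannot be told apart.

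Cholesterol synthesis begins when acetyl-CoA units are joined and reduced to mevalonate, which is turned into farnesyl diphosphate, squalene and, through lanosterol, cholesterol. Most of these genes are targets of the SREBP transcription factors, which stay in the endoplasmic reticulum bound to SCAP and INSIG proteins when sterols are plentiful, and reach the nucleus after cleavage in the Golgi when sterols are scarce. SREBP-2 is best known for sterol genes and SREBP-1 for fatty acid genes, and both act at promoters with the partner factors NF-Y and Sp1. Tumour cells often make fatty acids themselves, and cells in serum-free medium receive little lipoprotein cholesterol.

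Promoter sequences are shown for some members as examples, and not for every member that holds many of the searched motifs. RefSeq windows on GRCh38.p14, from 250 bases before to 50 bases after a transcription start, were found for 26 of the 30 genes (36 windows, as some genes have several starts). They were searched on both strands for TCACNCCAC (the core of a sterol regulatory element), CACGTG (an E-box), CCAAT (the NF-Y box) and GGGCGG (the GC box bound by Sp1). CCAAT may overlap its own reverse complement, and was in 25 of the 36 windows (69.4%), of 21 genes, beside 34.6% of all 35116 windows. GGGCGG was in 32 windows (88.9%), of 25 genes, beside 45.0% of all windows and 56.3% of those of protein-coding genes. CACGTG was in 4 windows (11.1%), of INSIG1, SC5D and LSS, beside 7.26% of all windows and 8.34% of those of protein-coding genes. The windows of SC5D overlap and share 1 E-box, which is thus counted in each. TCACNCCAC was in 1 window (2.78%), of SREBF2, beside 1.13% of all windows. The lines below give bases -200 to -21 from the start, 5′ to 3′ on the strand of the gene, with CCAAT, its reverse complement ATTGG and the sterol element in capitals. SREBF2 (chr22:41832905-41833084, forward strand) is the gene with the sterol element, which starts at -133. MVK (chr12:109573594-109573773, forward) and NSDHL (chrX:152830863-152831042, forward) hold the most NF-Y boxes, 5 in each whole window. EBP (chrX:48521608-48521787, forward) holds 3, fewer than MSMO1, which holds 4 and is not shown. ELOVL6 (chr4:110198636-110198815, reverse), the member with the largest differences between libraries, holds none of these motifs except 1 GC box.
SREBF2: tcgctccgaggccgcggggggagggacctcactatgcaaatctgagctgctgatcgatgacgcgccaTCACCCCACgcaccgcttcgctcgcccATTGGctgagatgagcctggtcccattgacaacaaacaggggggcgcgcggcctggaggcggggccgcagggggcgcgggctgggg
MVK: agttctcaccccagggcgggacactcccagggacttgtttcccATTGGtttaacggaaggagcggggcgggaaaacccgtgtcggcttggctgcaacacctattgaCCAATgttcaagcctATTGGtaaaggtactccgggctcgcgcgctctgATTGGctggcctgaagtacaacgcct
NSDHL: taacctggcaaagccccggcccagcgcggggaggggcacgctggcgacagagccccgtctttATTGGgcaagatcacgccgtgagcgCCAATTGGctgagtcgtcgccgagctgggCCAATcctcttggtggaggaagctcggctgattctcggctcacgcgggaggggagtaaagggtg
EBP: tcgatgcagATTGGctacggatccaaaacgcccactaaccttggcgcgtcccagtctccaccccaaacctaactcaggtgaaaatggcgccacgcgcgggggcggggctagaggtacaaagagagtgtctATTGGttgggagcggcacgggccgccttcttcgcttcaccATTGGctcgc
ELOVL6: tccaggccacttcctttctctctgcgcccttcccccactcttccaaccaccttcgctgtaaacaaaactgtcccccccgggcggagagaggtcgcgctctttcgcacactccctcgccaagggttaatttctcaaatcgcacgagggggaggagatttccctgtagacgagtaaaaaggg
In NSDHL, CCAAT and ATTGG overlap by sharing bases in the run CCAATTGG. The sequences describe these windows only, since no binding was measured.

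The libraries held 19960644 to 26322847 counts on genes, 79.7% to 81.0% of their reads, and the 30 members took 0.730% to 0.814% of the counts on genes. TCOF1, the targeted gene, was at 50.4 and 50.1 CPM (counts brought to a common library size with edgeR's TMM factors) in CTL and gRNA2, and at 33.5 and 20 CPM in CTL+dox and gRNA2+dox. It was thus lowest in the library labelled as the knockout, at a log2 ratio of -1.32 to gRNA2 (interval -1.48 to -1.17), and it was also lower in CTL+dox than in CTL, by -0.59 (-0.73 to -0.45). Markers of basal epithelium were abundant, all 7 having at least 10 counts and summing to 15925 to 17529 CPM, and the 4 general epithelial markers summed to 2232 to 2657 CPM. The 4 luminal markers summed to 139 to 190 CPM, and PGR was under 10 counts. Of other cell types, 1 of 5 white blood cell markers (CD14; sum 10.7 to 13.0 CPM), 2 of 4 fibroblast markers (16.7 to 21.3 CPM), 2 of 3 endothelial markers (0.916 to 1.52 CPM, CDH5 at 0) and 1 of 4 fat cell markers (0.800 to 1.33 CPM, ADIPOQ at 0) reached 10 counts.

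All 30 members were expressed well above the smallest level the depth can show, which is 0.114 to 0.148 CPM for 3 counts. They had 118 to 27117 counts in a library, with a median of 5122, beside 411 for the 15204 genes that reached 10 counts in some library, to which all comparisons are limited. Between the 4 libraries most of them differed little. In 27 of the 30 the highest library was under 1.3 times the lowest, and the median of this ratio was 1.15, the same as the 1.15 of the 5361 tested genes with at least 1000 counts in a library. ELOVL6 was the 1 member past 1.5 times, at 2.01.

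The enzymes of both pathways covered a wide range of levels. Per kilobase of transcript, the mean level over the 4 libraries was highest for FDPS (274 CPM per kilobase), DHCR7 (249), EBP (219), MSMO1 (192) and SCD (187), and lowest for ELOVL6 (1.3), FADS1 (3.48), SREBF1 (6.20), ACACA (6.30) and STARD4 (7.54). Neighbours such as SREBF1 and ACACA, or SREBF2 at 66.5 and CYP51A1 at 66.2, lay closer together than their own spread over libraries. Of the transcription factors, SREBF2 (66.5 CPM per kilobase) stood above SREBF1 (6.20), and FASN (78.2) stood above ACACA (6.30), the carboxylase that feeds it.

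**Figure D1:**
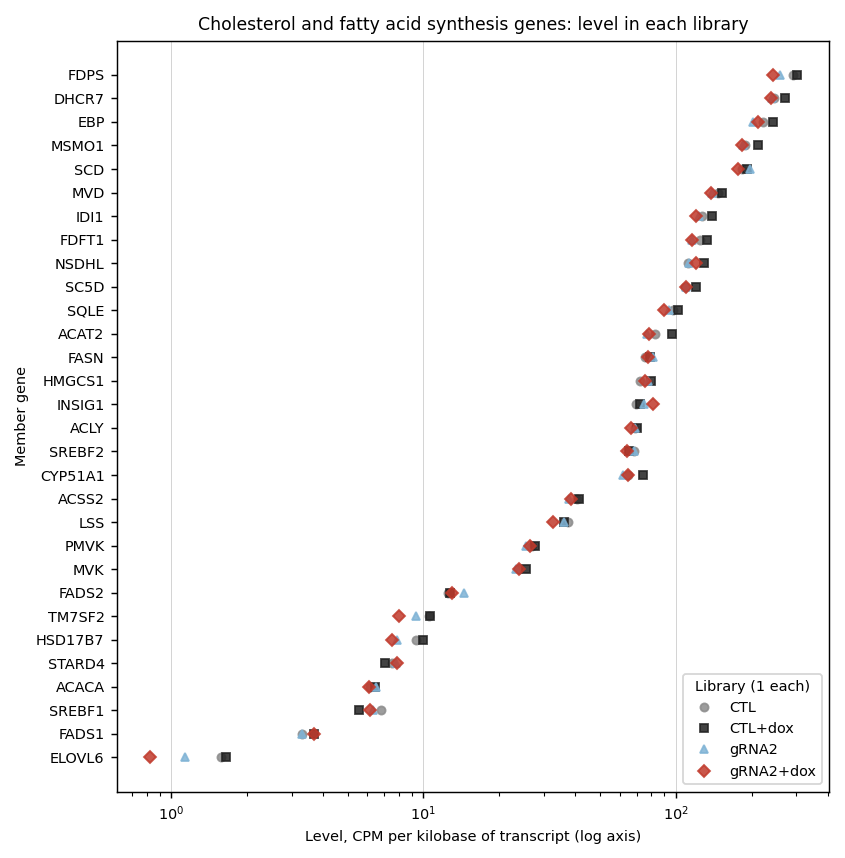
Level of each of the 30 genes in each library, in CPM per kilobase of transcript on a log axis, 1 point a library and genes ordered by their mean. The points of a gene nearly coincide except for ELOVL6 at the bottom, where gRNA2+dox (0.823 CPM per kilobase) lies apart from CTL (1.58) and CTL+dox (1.65).

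In the following paragraphs 4 values in a row are levels in CPM in CTL, CTL+dox, gRNA2 and gRNA2+dox. ACAT2, the thiolase that joins acetyl-CoA units in the cytosol, was at 125, 147, 117 and 119 CPM. HMGCS1, which makes HMG-CoA, was at 385, 426, 415 and 405 CPM. In both, CTL+dox was the highest library, by more in ACAT2. MVK and PMVK add the phosphates to mevalonate, and were at 67.9, 72.2, 65.7 and 67.7 CPM for MVK and 26.9, 27.7, 25.6 and 26.4 CPM for PMVK. MVD, the decarboxylase that yields isopentenyl diphosphate, was at 264, 275, 249 and 249 CPM. These spans are small, and for MVK and PMVK the intervals of all 5 comparisons between libraries held 0. IDI1, which isomerises isopentenyl diphosphate, was at 349, 380.0, 339 and 329 CPM. FDPS, which joins the isoprene units into farnesyl diphosphate, was at 412, 428, 368 and 344 CPM. In these last genes of the mevalonate pathway both gRNA2 libraries lay below both CTL libraries.

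FDFT1, which makes squalene, was at 254, 272, 236 and 237 CPM. SQLE, which oxidises squalene, was at 288, 303, 278 and 265 CPM. LSS, the cyclase that forms lanosterol, was at 183, 177, 176 and 159 CPM. Among the 18 sterol enzymes LSS was the exception, with CTL and not CTL+dox as the highest library. CYP51A1, the lanosterol demethylase, was at 203, 233, 194 and 204 CPM. TM7SF2, a sterol reductase acting next, was at 16.5, 16.8, 14.8 and 12.6 CPM. MSMO1, which oxidises the methyl groups of the ring, was at 420.0, 470.0, 411 and 407 CPM. TM7SF2 differed most of the 3, on 276 to 389 counts. NSDHL, which decarboxylates the sterol ring, was at 206, 237, 207 and 221 CPM. HSD17B7, which reduces the ketone left behind, was at 14.3, 15.2, 12 and 11.5 CPM. HSD17B7 has a near-identical copy, HSD17B7P2, listed at 0 or 1 count in each library, so reads that fit both may be missing from these values. EBP, the sterol isomerase, was at 248, 273, 227 and 237 CPM. SC5D, a sterol desaturase, was at 748, 824, 753 and 753 CPM. DHCR7, which completes cholesterol, was at 640.0, 713, 634 and 625 CPM. In all 3 the library that stood highest was CTL+dox.

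SREBF2, which encodes SREBP-2, was at 357, 342, 358 and 334 CPM. SREBF1, which encodes SREBP-1, was at 33.4, 27.2, 30.8 and 30.1 CPM. Both genes were lower in CTL+dox than in CTL, opposite to 17 of the 18 sterol enzymes. INSIG1, an SREBP target whose protein holds SCAP in the endoplasmic reticulum, was at 203, 211, 217 and 235 CPM. STARD4, a carrier of cholesterol between membranes, was at 34.7, 32.5, 36.0 and 36.4 CPM. Both were highest in gRNA2+dox.

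ACLY, which releases acetyl-CoA from citrate, was at 296, 300, 294 and 284 CPM. ACSS2, which makes acetyl-CoA from acetate, was at 117, 120.0, 109 and 111 CPM. ACACA, which makes malonyl-CoA, was at 61.6, 64.5, 65.1 and 60.9 CPM. Their spans were within 1.3 times, as for most members. FASN, the multi-enzyme that builds palmitate, was at 638, 670.0, 684 and 657 CPM. SCD, which puts a double bond into saturated fatty acids, was at 959, 1003, 1030.0 and 927 CPM. FASN and SCD were both highest in gRNA2, unlike the sterol enzymes. FADS1 and FADS2, which desaturate polyunsaturated fatty acids, were at 14.4, 16.0, 14.4 and 16.0 CPM for FADS1 and 38.7, 39.4, 44.7 and 40.0 CPM for FADS2. These neighbours on chromosome 11 overlap by 490 transcript bases on opposite strands, and the kit does not mark strand, so reads there cannot be told apart.

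ELOVL6 lengthens palmitate to stearate, and its gene lies at chr4:110045846-110199202 (RefSeq, GRCh38.p14). Its counts were 210 and 244 in the CTL cells without and with doxycycline, and 197 and 118 in the gRNA2 cells, or 10.4, 10.8, 7.48 and 5.40 CPM. Both gRNA2 libraries were below both CTL libraries, and within the gRNA2 cells the library with doxycycline was the lower. It overlaps an unnamed long noncoding RNA on the opposite strand by 240 bases.

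**Figure D2:**
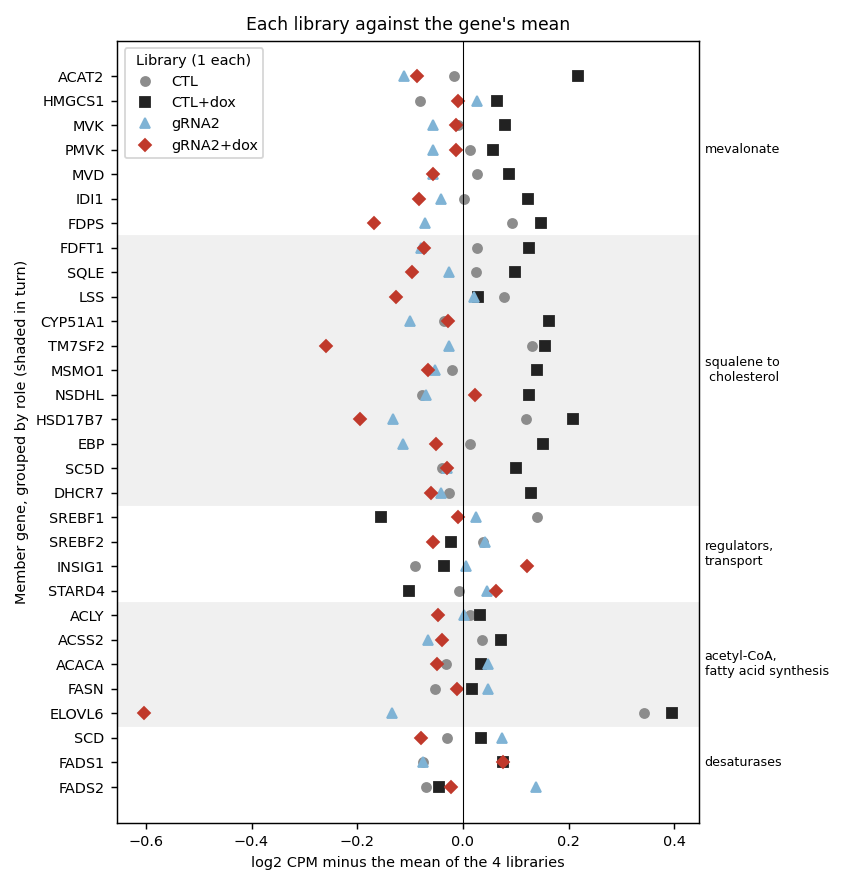
Each library's log2 CPM minus the gene's mean over the 4 libraries, for the 30 genes grouped by role (shaded in turn), 1 point a library. CTL+dox (squares) lies farthest right in 17 of the 18 sterol enzymes, and gRNA2+dox (diamonds) lies far left in ELOVL6.

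The most regular feature of the members was the CTL+dox library. It was the highest of the 4 libraries in 20 of the 30 members (66.7%), beside 29.6% of all tested genes and 29.7% of those with at least 1000 counts. Of the 18 sterol enzymes it was highest in 17 (94.4%), and of the 8 fatty acid enzymes in 3 (37.5%). The levels of the 18 sterol enzymes summed to 5290.0 CPM in CTL+dox, against 4850.0 in CTL, 4724 in gRNA2 and 4671 with gRNA2+dox. For the 8 fatty acid enzymes the sums were 2135, 2223, 2248 and 2102 CPM, higher in CTL+dox than in CTL but highest in gRNA2. The gRNA2+dox library was lowest in 14 of the 30 members (46.7%), beside 25.7% of all tested genes, and in 9 of the 18 sterol enzymes. No replicate shows how far such a set of genes varies between cultures of 1 condition.

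The difference with doxycycline in cells with the control guide was taken from CTL+dox against CTL. Sterol enzymes were slightly higher with doxycycline, while SREBF1, SREBF2 and STARD4 had log2 ratios below 0. Calls needed a log2 ratio of at least 0.5 in size and an interval on 1 side of 0. By this rule 0 of the 30 members were called lower, beside 2.14% of all tested genes, and 0 higher, beside 1.66%. Among genes with at least 1000 counts, which include 23 of the members, these shares were 0.280% and 0.0560%. The interval alone lay above 0 in 15 members, beside 14.8% of all tested genes and 26.3% of those with at least 1000 counts, and below 0 in 2, SREBF1 and SREBF2, beside 15.6% and 27.3%. A log2 ratio below 0 was found in 4 of the 30, beside 49.8% of all tested genes. The median log2 ratio was 0.07 for the 30 members, 0.11 for the sterol enzymes, 0.06 for the fatty acid enzymes and -0.08 for the regulators and carriers, beside 0.001 for all tested genes. Of the 18 sterol enzymes 17 were above 0, and the intervals of 13 were. All 8 fatty acid enzymes were above 0, and the intervals of 2 were. The highest members were ACAT2 at 0.23 (0.16 to 0.31), CYP51A1 at 0.20 (0.14 to 0.26) and NSDHL at 0.20 (0.14 to 0.26), which act early and late in the sterol route. ACAT2 shares 454 transcript bases with TCP1 on the opposite strand, and CYP51A1 shares 2844 with an unnamed gene on its own strand, so both values are uncertain. Other members overlap other genes too. EBP shares 644 bases with an unnamed gene on its own strand, and HMGCS1 shares 2497 with a long noncoding RNA on the opposite strand. The lowest were SREBF1 at -0.30 (-0.46 to -0.14), STARD4 at -0.09 (-0.24 to 0.06) and SREBF2 at -0.06 (-0.11 to -0.01). SREBF1 shares 556 transcript bases with RAI1 on the opposite strand, and in the counts of strand 1 alone it would be called lower, at -0.58 (-0.82 to -0.35), whereas those of strand 2 put it at -0.03.

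TCOF1 knockout within 1 cell pool was addressed by gRNA2+dox against gRNA2. ELOVL6 was lower at a log2 ratio of -0.47 (-0.81 to -0.13), just short of the size that a call needs, and the other members lay between -0.22 and 0.16. None of the 30 was called, 0 lower beside 2.74% of all tested genes and 0 higher beside 2.22%. These shares were 0.0560% and 0.392% among genes with at least 1000 counts. The counts of strand 2 alone put ELOVL6 at -0.57 (-1.04 to -0.11), which would be called. Those of strand 1 put it at -0.34 (-0.86 to 0.16), an interval that holds 0. Next lowest were TM7SF2 at -0.22 (-0.45 to 0.00) and FADS2 at -0.16 (-0.29 to -0.03), the latter at -0.02 in the counts of strand 1 alone. Highest were FADS1 at 0.16 (-0.05 to 0.37), INSIG1 at 0.12 (0.06 to 0.17) and NSDHL at 0.09 (0.04 to 0.15). The interval lay below 0 in 10 members, beside 14.9% of all tested genes and 23.2% of those with at least 1000 counts, and above 0 in 4, beside 15.8% and 26%. These 4 were INSIG1, NSDHL, CYP51A1 and EBP. A log2 ratio below 0 was found in 19, beside 50.4% of all tested genes. The median was -0.03 for the 30 members, -0.01 for the 18 sterol enzymes, -0.08 for the 8 fatty acid enzymes and -0.01 for the 4 regulators and carriers, beside -0.002 for all tested genes. Of the fatty acid enzymes 5 had intervals below 0, among them SCD at -0.15 (-0.18 to -0.12) and FASN at -0.06 (-0.09 to -0.03).

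With doxycycline in both pools, gRNA2+dox was also set against CTL+dox. Every 1 of the 18 sterol enzymes was lower in gRNA2+dox, at -0.41 to -0.07, and ELOVL6 was lower by more than any of them, whereas INSIG1, STARD4 and SREBF1 lay above 0. ELOVL6, at -1.0 (-1.33 to -0.68), was the 1 member called lower, beside 5.04% of all tested genes, and 0 were called higher, beside 3.35%. These shares were 0.709% and 1.36% among genes with at least 1000 counts, a number that ELOVL6 did not reach in any library. Next lowest were TM7SF2 at -0.41 (-0.64 to -0.18) and HSD17B7 at -0.40 (-0.64 to -0.16), both on few counts. FDPS at -0.32 (-0.36 to -0.27) and ACAT2 at -0.31 (-0.38 to -0.23) were lowest of the more abundant genes. The interval lay below 0 in 20 of the 30 members, beside 19.6% of all tested genes and 25.9% of those with at least 1000 counts. In the 11 genes from squalene to cholesterol it lay below 0 in all 11, and in the 7 mevalonate genes in 5. It lay above 0 in 2, INSIG1 at 0.16 (0.10 to 0.21) and STARD4 at 0.16 (0.01 to 0.31), beside 20.6% and 37.3%. SREBF1 was at 0.15 (-0.01 to 0.31), and at 0.33 in the counts of strand 1 alone. A log2 ratio below 0 was found in 25 members, beside 50.1% of all tested genes, and the median was -0.12, beside -0.001. By group the median was -0.19 for the sterol enzymes, -0.08 for the fatty acid enzymes and 0.15 for the regulators and carriers. This comparison shares the CTL+dox library with CTL+dox against CTL and the gRNA2+dox library with gRNA2+dox against gRNA2, and the sterol enzymes had a median of -0.01 when gRNA2 was the reference. TCOF1 itself was at -0.74 (-0.92 to -0.57) against CTL+dox.

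**Figure D3:**
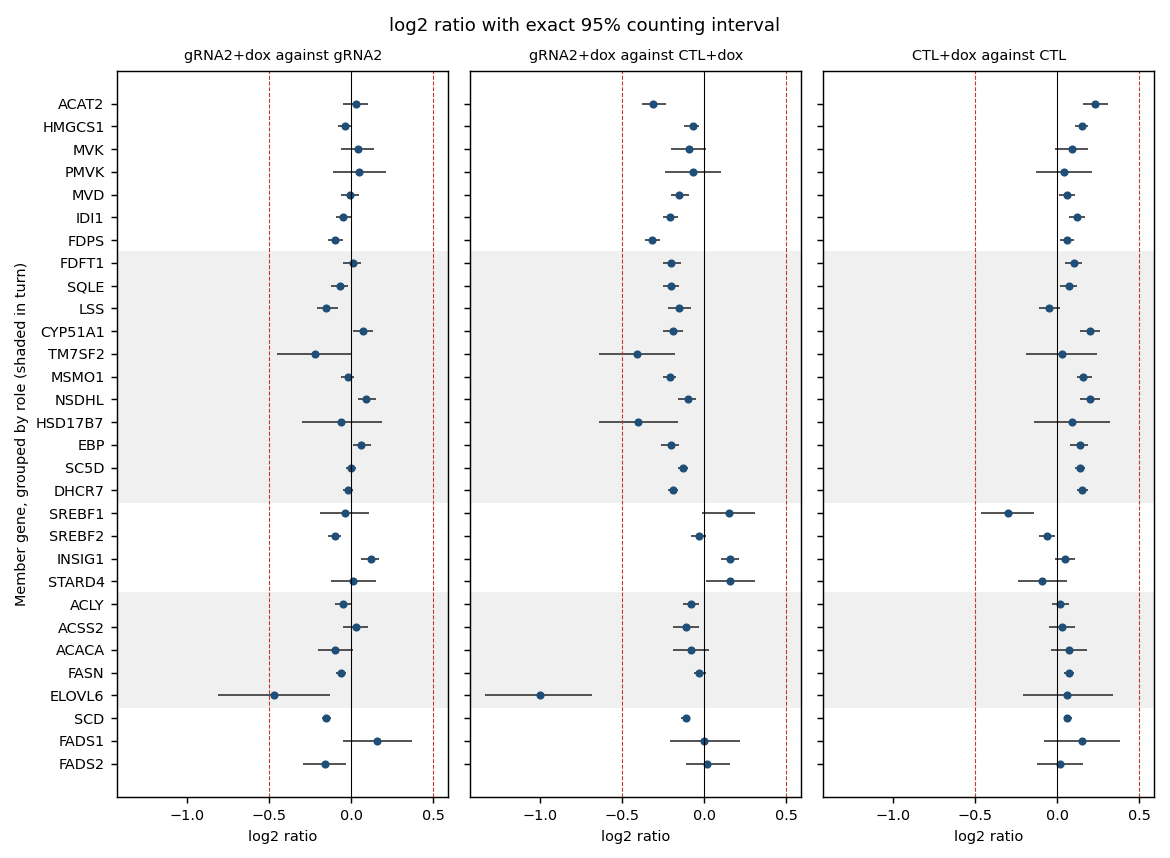
log2 ratio of each of the 30 genes in 3 comparisons, with points for the ratio, bars for the exact 95% counting interval and dashed lines at the size a call needs. The sterol enzymes, the upper 18 rows, centre on -0.01 in gRNA2+dox against gRNA2, lie left of 0 against CTL+dox (median -0.19), and mostly right of 0 in CTL+dox against CTL (median 0.11), and ELOVL6 reaches -1.0 in the middle panel.

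The pools without doxycycline differed too. In gRNA2 against CTL, 0 members were called lower, beside 3.21% of all tested genes and 0.354% of those with at least 1000 counts. Called higher were 0, beside 1.64% and 0.0560%. ELOVL6 was again lowest at -0.47 (-0.76 to -0.18), without doxycycline in either library, while TCOF1 was at -0.01. HSD17B7 at -0.26 (-0.49 to -0.02) and FDPS at -0.16 (-0.20 to -0.12) followed, and the highest were FADS2 at 0.21 (0.07 to 0.34), HMGCS1 at 0.11 (0.07 to 0.15) and SCD at 0.10 (0.08 to 0.13). The interval lay below 0 in 10 members, beside 15.1% of all tested genes and 20.2% of those with at least 1000 counts, and above 0 in 5, beside 15.7% and 30.3%. A log2 ratio below 0 was found in 20 members, beside 50.8% of all tested genes, and the median was -0.04. Counts of strand 1 alone put ELOVL6 at -0.66 (-1.09 to -0.23), which would be called lower, and FADS2 at 0.07. Those of strand 2 put ELOVL6 at -0.31, short of the size that a call needs. With both changes at once, in gRNA2+dox against CTL, ELOVL6 was called lower at -0.94 (-1.28 to -0.61). It was the 1 member so called, beside 4.54% of all tested genes and 0.317% of those with at least 1000 counts. ELOVL6 did not reach 1000 counts in any library, so the latter share does not cover it. Called higher were 0, beside 2.32% and 0.616%. TM7SF2 followed at -0.38 and HSD17B7 at -0.31, and INSIG1 was highest at 0.21, above FADS1 at 0.15 and NSDHL at 0.10. The interval lay below 0 in 14 members, beside 16.1% of all tested genes and 20.6% of those with at least 1000 counts, and above 0 in 4, beside 17.0% and 31.4%. The median of the 30 was -0.05.

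How doxycycline acted in the TCOF1-guide cells beside the control cells was taken as the difference of the log2 ratios of gRNA2+dox to gRNA2 and of CTL+dox to CTL, which uses each library once. The difference was below 0 in 25 of the 30 members (83.3%), beside 49.2% of all tested genes, with a median of -0.13, beside 0.00. Members had higher counts than most tested genes (medians of 5122 and 411), which narrows their intervals. No share among genes with at least 1000 counts was computed for this difference. The 95% interval of the difference lay below 0 in 17 (56.7%), beside 12.4% of all tested genes, and above 0 in 1 (3.33%), beside 14.3%. The exception was SREBF1, at 0.26 (0.04 to 0.48), which was 0.56 (0.25 to 0.87) in the counts of strand 1 alone and -0.02 (-0.32 to 0.28) in those of strand 2. The lowest was ELOVL6 at -0.53 (-0.95 to -0.11), which was 0.06 (-0.21 to 0.34) with doxycycline in CTL cells and -0.47 in gRNA2 cells. With strand 1 alone these ratios of ELOVL6 were -0.13 and -0.34, which differ by -0.22 (-0.84 to 0.40), and with strand 2 they were 0.23 and -0.57, which differ by -0.79 (-1.37 to -0.22). SCD was at -0.21 (-0.25 to -0.18), ACAT2 at -0.20 (-0.31 to -0.10) and HMGCS1 at -0.19 (-0.24 to -0.13). Of the 18 sterol enzymes, 17 were above 0 in CTL+dox against CTL, with a median of 0.11, and 11 were below 0 in gRNA2+dox against gRNA2, with a median of -0.01.

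**Figure D4:**
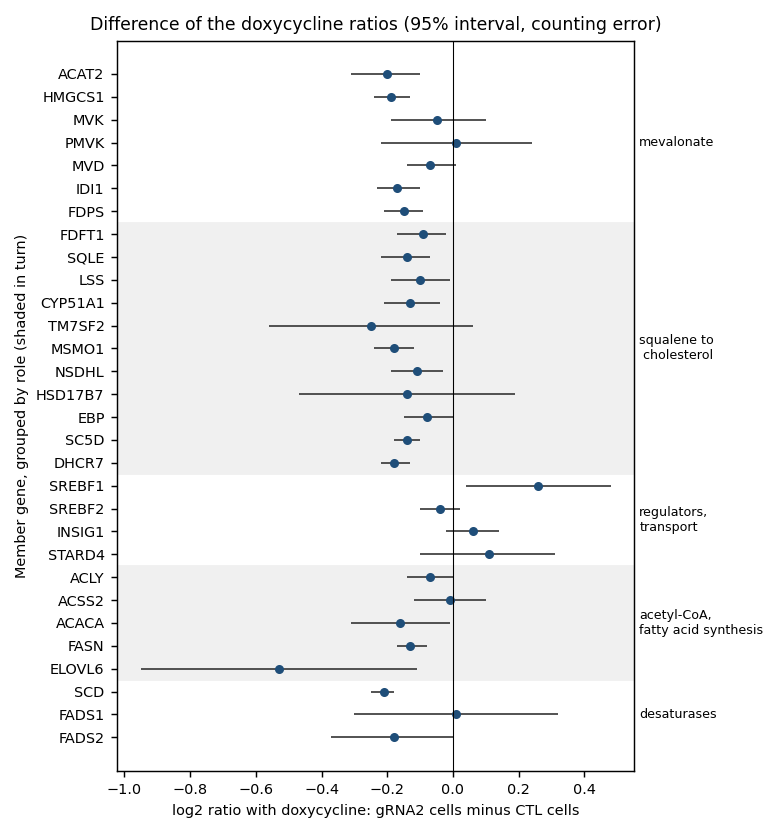
Difference of the doxycycline log2 ratios, gRNA2 cells minus CTL cells, for each of the 30 genes, with points for the difference and bars for its 95% interval from counting error. The sterol enzymes lie left of 0 apart from PMVK, ELOVL6 is leftmost at -0.53, and SREBF1 is at the right at 0.26.

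Other genes of lipid metabolism were read from lists of genes outside the 30. In gRNA2+dox against gRNA2, 0 genes of the 8 lists were called, and genes are named as the lowest and the highest of each list there among those with at least 100 counts. Of the other sterol and isoprenoid enzymes, 15 of 16 were tested, with medians of 0.02 against gRNA2 and -0.01 against CTL+dox. CYB5R3, a reductase that passes electrons to desaturases, was lowest at -0.23 (-0.29 to -0.18), and DHDDS, which makes dolichol precursors, was highest at 0.31 (0.23 to 0.40) and was the 1 gene of the 15 called higher against CTL+dox, at 0.62 (0.53 to 0.71), beside 3.35% of all tested genes. The 12 genes of SREBP processing and sterol sensing had medians of 0.06 against gRNA2 and -0.16 against CTL+dox, and 0 were called in either. PAQR3, which tethers SCAP in the Golgi, was highest against gRNA2 at 0.23 (0.13 to 0.33).

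Of the 12 genes of lipoprotein uptake and lysosomal cholesterol, 0 were called against gRNA2 or CTL+dox, with medians of -0.01 and -0.03. MYLIP, a ligase that degrades the LDL receptor, was lowest against gRNA2 at -0.27 (-0.50 to -0.04). Of the 10 genes of cholesterol efflux and LXR targets, ABCG1, a cholesterol exporter, was lowest at -0.41 (-0.71 to -0.12) and was the 1 gene of the 10 called lower against CTL+dox, at -0.81 (-1.10 to -0.52), beside 5.04% of all tested genes, while NR1H3, which encodes LXR alpha, was highest at 0.36 (0.14 to 0.59). The medians of that list were 0.15 and 0.08. Of the genes of esterification and oxysterols 5 of 8 were tested and 0 called, from OSBPL5 at -0.05 (-0.17 to 0.06) to OSBP at 0.04 (-0.02 to 0.09), both oxysterol-binding proteins. In glycerolipid synthesis, 17 of 18 were tested and 0 called, from PNPLA3, a lipase of lipid droplets, at -0.28 (-0.60 to 0.03) to GPAM, an acyltransferase, at 0.24 (-0.03 to 0.52). Fatty acid activation and oxidation had 17 of 19 tested and 0 called in these comparisons, from ACSL3 at -0.13 (-0.23 to -0.03) to ACSL5 at 0.30 (-0.11 to 0.71), both acyl-CoA synthetases. Both medians lay near 0 in these last lists, at -0.02 and 0.02 for glycerolipid synthesis and -0.01 and -0.08 for oxidation.

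The genes of fatty acid elongation stand next to ELOVL6 in the pathway. Each round joins malonyl-CoA to the chain (ELOVL proteins), reduces it (HSD17B12), removes water (HACD proteins) and reduces it again (TECR). In the list of other fatty acid synthesis and elongation genes, 17 of 18 were tested, with medians of -0.09 against gRNA2 and -0.11 against CTL+dox, and ACACB, a carboxylase at the mitochondrion, was lowest against gRNA2 at -0.28 (-0.60 to 0.02), and ELOVL4, an elongase of very long chains, highest at 0.15 (0.09 to 0.21). Against CTL+dox 2 of the 17 were called lower, beside 5.04% of all tested genes, and 0 higher, beside 3.35%. The 2 were HACD1 and ELOVL2, which are named after their values were seen. HACD1 had 170, 235, 161 and 114 counts in CTL, CTL+dox, gRNA2 and gRNA2+dox, and its log2 ratio was -1.0 (-1.34 to -0.67) against CTL+dox and -0.23 (-0.59 to 0.13) against gRNA2. ELOVL2, an elongase of polyunsaturated fatty acids, had 233, 284, 279 and 193 counts in the same order, with ratios of -0.51 (-0.79 to -0.25) and -0.26 (-0.53 to 0.01). The more abundant members of the cycle differed less. ELOVL5 was at 0.07 (0.02 to 0.13) against CTL+dox, HSD17B12 at -0.30 (-0.37 to -0.24), HACD3 at -0.29 (-0.38 to -0.21) and TECR at -0.08 (-0.12 to -0.04). ELOVL6, HACD1 and ELOVL2 were each highest in CTL+dox and lowest in gRNA2+dox, on at most 284 counts. Being called lower in gRNA2+dox against CTL+dox favours this order, so it adds nothing to the calls. The more abundant HSD17B12 and HACD3 had the same highest and lowest libraries.

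**Figure D5:**
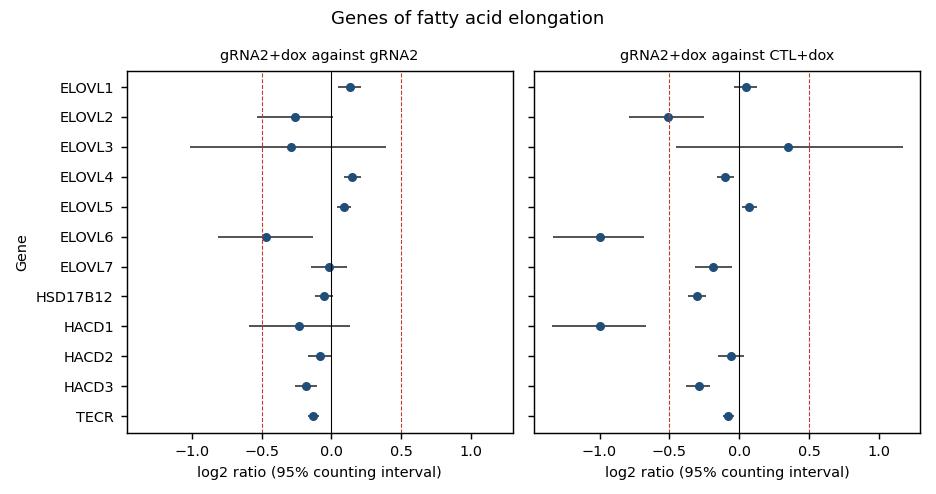
log2 ratio of the genes of fatty acid elongation in gRNA2+dox against gRNA2 and against CTL+dox, with points for the ratio, bars for the exact 95% counting interval and dashed lines at the size a call needs. ELOVL6 and HACD1 lie at -1.0 against CTL+dox, and at -0.47 and -0.23 against gRNA2.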

How the data were processed

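RNA of MDA-MB-468 mammospheres was measured in 4 libraries, 1 a condition. The authors trimmed reads with fastp and deposited raw counts per gene from STAR, unnormalized. The submitters' processing notes name STAR and hg38; versions and the gene annotation are not given in the sources used here. The unstranded counts were used, since the first strand held 49.0% to 49.1% of stranded counts. Reads not assigned to a gene (unmapped 2.25% to 2.49%, multimapping 3.39% to 4.85%, outside genes 10.6% to 12.5%, ambiguous 2.09% to 2.17%) entered no library size. Reads that map to several places are not counted on genes.

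Counts were scaled by TMM (edgeR 4.0.16, R 4.3.3), with factors of 0.985 to 1.01. Genes that reached 10 counts in some library were compared. Log2 ratios used a prior count of 0.5, and intervals (95%, Clopper-Pearson) were computed with Python 3.11.15, numpy 2.4.6, pandas 2.3.3 and scipy 1.17.1. The interval stands in for the counting-error bound of GFOLD, which the study used. The code was tested on simulated data. Transcript lengths and overlaps came from GENCODE 44 lifted to GRCh37, and promoters and positions from RefSeq on GRCh38.p14, matched by symbol.

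The members and lists were chosen with earlier results of these data known. Named were all 30 members with their levels, the ratios of called members and of the 3 lowest and 3 highest of each comparison, TCOF1, and from each other list the genes called in gRNA2+dox against both gRNA2 and CTL+dox, or else its lowest and highest against gRNA2 with at least 100 counts. Some genes of this rule are not reported here. A search for genes of like pattern was to be made with at least 3 called members, and was not made. Other ratios, named for a group they belong to, were chosen after their values were seen. As alternatives, total counts, DESeq2 1.42.0 size factors, thinning to the smallest library, no filter, a minimum of 50 counts, a prior count of 5, a log2 ratio of 1 for a call, an added coefficient of variation of 0.1 and each strand's counts were tried.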

Additional observations from a re-analysis of the deposited data

Results flagged for a closer look

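In 5 members the counting intervals put doxycycline below 0 in the gRNA2 cells and above 0 in the CTL cells, which is why they are set apart here. The difference of the doxycycline log2 ratios, gRNA2 cells minus CTL cells, was -0.17 for IDI1, -0.15 for FDPS, -0.14 for SQLE, -0.13 for FASN and -0.21 for SCD. With 1 library in each condition the difference was not tested against the spread between cultures. FASN and SCD are enzymes of fatty acid synthesis and the others of the sterol route, and in each of the 5 the ratios themselves were at most 0.15 in size. Of the 5, only SCD had intervals on opposite sides of 0 in the counts of each strand alone. With strand 1 the ratio in the gRNA2 cells was 0.04 (-0.01 to 0.10) for IDI1 and -0.06 (-0.14 to 0.01) for SQLE, and that in the CTL cells was 0.03 (-0.03 to 0.08) for FDPS. With strand 2 the ratio of FASN in the gRNA2 cells was -0.01 (-0.06 to 0.03).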

How the results depend on the processing

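With 1 library a condition, no spread between cultures could be estimated, so each difference above may lie within it. No paired analysis was possible because the groups hold 1 library each, and no library could be left out of a comparison. The member called lower, ELOVL6 in gRNA2+dox against CTL+dox, was called under each of the alternatives run, at -1.11 to -0.87. Against CTL 1 member was called under all but a log2 ratio of at least 1, which left 0. In the counts of strand 2 alone 1 member (ELOVL6) was called lower in gRNA2+dox against gRNA2, and in those of strand 1 alone 1 was called lower in CTL+dox against CTL (SREBF1) and 1 in gRNA2 against CTL (ELOVL6). Each strand alone holds fewer counts, and the cause of these changed calls was not tested. The interval alone, chosen after seeing the data, gave 10 lower and 4 higher in gRNA2+dox against gRNA2, 20 and 2 against CTL+dox, 2 and 15 in CTL+dox against CTL, 10 and 5 in gRNA2 against CTL, and 14 and 4 in gRNA2+dox against CTL. Under 6 other choices of scaling, thinning, prior count and strand, the median of the members stayed at -0.050 to -0.018 in gRNA2+dox against gRNA2, -0.150 to -0.116 against CTL+dox and 0.050 to 0.087 in CTL+dox against CTL. All 18 sterol enzymes stayed below 0 against CTL+dox under these, and 16 or 17 were highest in CTL+dox. Of 155 ratios of single members and TCOF1, 28 moved past their counting interval with strand 1, 19 with strand 2, 4 with total counts and 0 with the other choices, and 1 whose interval lay on 1 side of 0 changed sign, IDI1 in gRNA2+dox against gRNA2, from -0.05 to 0.04 with strand 1. Genes of low counts, such as ELOVL6, TM7SF2, HSD17B7 and FADS1, have the widest intervals.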
